A study of Mus musculus with 6 samples.

Results

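Described here are 10 genes of the pathway, chosen by symbol: the hexokinases Hk1 and Hk2, the phosphofructokinases Pfkm and Pfkp, the aldolases Aldoa and Aldoc, the phosphoglycerate mutase Pgam1, the pyruvate kinase Pkm, and the lactate dehydrogenases Ldha and Ldhb. The symbols matched 11 rows of the 52550 genes in the count table, because Aldoa stands for 2 gene identifiers. The second of these (ENSMUSG00000114515, chromosome 7, 126800790 to 126809108, minus strand) had 3 to 9 counts per library and did not pass the filter on low counts. The other 10 rows passed it and were tested. The 2 Aldoa genes overlap on the same strand, and reads they share could be split between them.

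Glycolysis splits glucose into pyruvate in the cytosol, and lactate dehydrogenase turns pyruvate into lactate and back. Several steps are served by related genes that differ between cell types. In the brain Hk1 is the general hexokinase and aldolase C (Aldoc) is an enzyme of astrocytes, while gamma enolase (Eno2) is a classical marker of neurons. Astrocytes are held to make lactate that neurons take up, and activated microglia raise glycolysis.

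The 6 libraries were made from hippocampal RNA of male C57BL/6J mice, each mouse given an adeno-associated virus in the CA1 field of both hippocampi at 8 weeks of age. In 3 libraries (TAF15 OE) the virus carried TAF15, an RNA-binding protein, behind CaMKIIα, a promoter used to reach excitatory neurons. The other 3 (Control) come from mice with a control virus, of which the labels say no more, and 31 days are given for all 6. The design text gives 3 mice per group, as many as there are libraries, but no label ties a library to 1 mouse. The p-values measure the spread between these libraries, which may be technical in part. The comparison asks which glycolytic transcripts differed in the hippocampus of mice with raised TAF15, and whether the forms linked to neurons and to glia differed alike.

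Libraries held 14965464 to 16067000 counts. Taf15, which checks the labels, had 795 to 958 counts in Control, against 3661 to 4477 in TAF15 OE (fold 4.27). The test, edgeR's quasi-likelihood test with Benjamini-Hochberg adjustment over 16758 genes and a threshold of 0.05, called 15.3% of them, 9.32% higher in TAF15 OE and 5.95% lower. Higher genes made up 61.0% of the calls, and 72.0% with total counts as the only scaling. Control 1 and TAF15 OE 1 stood apart from the other libraries in choroid plexus markers, with a summed level of 146 and 1531 CPM (counts scaled to the library total) against 4295 to 4999 in the other 4. Markers of several cell types moved with the groups. Of 14 neuronal markers 11 were lower and 0 higher (median log2 fold change -0.29), with a summed level of 13520 to 15560 CPM in Control, against 10320 to 11840 in TAF15 OE. Of 12 astrocyte markers 9 were higher (median 0.50, 4846 to 6072 against 8718 to 9436 CPM), and of 12 microglia markers 11 were higher (median 1.21, 557 to 605 against 1124 to 1748 CPM). Of 10 oligodendrocyte markers 8 were higher (median 0.46, 5231 to 5647 against 6424 to 8332 CPM), and of 10 endothelial markers 4 (median 0.45, 229 to 286 against 303 to 388 CPM). Of 6 oligodendrocyte precursor markers 1 was higher (median 0.19). Of 8 choroid plexus markers and 3 tested red blood cell markers 0 were called, and their summed levels overlapped between the groups. The median of all tested genes was 0.026. In whole tissue, fewer cells of a type and less RNA per cell cannot be told apart, and the part of these markers in the results below was not tested.

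The sequences before the transcription starts of 5 of the genes are shown because Hk2, Aldoa and Pgam1 were called, Aldoc is the counterpart of Aldoa, Ldha is a classical hypoxia target, and Hif1a, which encodes the oxygen-sensitive subunit of a transcription factor known to drive glycolytic genes, was called higher here. Each run is the 250 bases before the RefSeq start nearest to the gene's 5′ end (GRCm38.p6), 5′ to 3′ on the gene's strand, with capitals marking the hypoxia response core, ACGTG or GCGTG on either strand.
Hk2, chr6:82774455-82774704, minus strand: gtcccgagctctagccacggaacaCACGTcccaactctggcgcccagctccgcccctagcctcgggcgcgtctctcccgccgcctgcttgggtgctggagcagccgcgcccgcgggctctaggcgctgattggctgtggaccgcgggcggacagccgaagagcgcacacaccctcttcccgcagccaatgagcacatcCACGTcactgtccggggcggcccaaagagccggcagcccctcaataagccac
Aldoa, chr7:126800448-126800697, minus strand: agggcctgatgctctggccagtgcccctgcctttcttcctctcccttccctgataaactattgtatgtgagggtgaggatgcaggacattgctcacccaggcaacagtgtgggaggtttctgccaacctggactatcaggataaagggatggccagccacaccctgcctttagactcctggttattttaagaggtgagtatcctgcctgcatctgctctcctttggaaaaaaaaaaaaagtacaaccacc
Aldoc, chr11:78322823-78323072, plus strand: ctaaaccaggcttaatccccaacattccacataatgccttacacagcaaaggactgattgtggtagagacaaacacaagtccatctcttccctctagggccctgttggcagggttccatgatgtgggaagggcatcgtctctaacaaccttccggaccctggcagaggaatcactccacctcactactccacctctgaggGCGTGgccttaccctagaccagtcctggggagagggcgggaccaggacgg
Pgam1, chr19:41911621-41911870, plus strand: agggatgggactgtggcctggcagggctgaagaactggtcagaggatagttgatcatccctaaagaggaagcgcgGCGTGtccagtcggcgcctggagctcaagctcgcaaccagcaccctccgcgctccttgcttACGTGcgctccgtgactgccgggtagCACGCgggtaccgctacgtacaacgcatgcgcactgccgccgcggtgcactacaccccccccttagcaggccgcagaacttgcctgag
Ldha, chr7:46845554-46845803, plus strand: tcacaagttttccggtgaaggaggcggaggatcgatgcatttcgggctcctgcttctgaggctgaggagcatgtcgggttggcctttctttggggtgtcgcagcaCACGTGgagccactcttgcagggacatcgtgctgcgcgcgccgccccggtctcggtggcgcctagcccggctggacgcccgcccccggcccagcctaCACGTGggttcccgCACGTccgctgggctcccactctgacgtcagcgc
Capitals form 2 stretches for Hk2, 3 for Pgam1, 3 for Ldha, 1 for Aldoc and none for Aldoa. A core was found in 7 of the 10 windows, against 38.6% of 32817 windows of the same length before all RefSeq starts. ACGTG alone was in 4 of 10 against 16.6%, and GCGTG in 4 of 10 against 28.1%. CACGTG, which contains ACGTG, was in 2 of 10 (Ldha and Pfkm) against 6.02%. The shares were not matched for base composition. The windows of Hk2, Pgam1 and Ldha are 69.6%, 64.0% and 67.2% G and C, and those of Aldoa and Aldoc 50.4% and 55.2%. Whether Hif1a or these cores have a part in any difference between the groups was not tested. A match is a description of the letters only, and Aldoa has 3 RefSeq starts of which 1 is shown. The windows of Aldoa and Ldha lie inside the counted genes, whose 5′ ends are at 126808905 (Aldoa) and 46841475 (Ldha). For Aldoa and Ldha the window is therefore not the sequence before the counted gene. The window of Aldoc runs into its counted gene, which starts at 78322968, and its core lies past that start.

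Transcript levels spanned a wide range. Per length, in FPKM (fragments per kilobase of transcript, scaled to library size), Aldoa was the most abundant in Control, at 373 ± 26.5 (mean ± SD, n = 3 libraries, as for all levels that follow). Aldoc followed at 258 ± 27.0 and Pkm at 233 ± 13.2, and the libraries of these neighbours overlapped. Ldhb at 187 ± 17.7 and Pgam1 at 174 ± 4.82 overlapped too. Below them, with no overlap between neighbours, came Pfkm at 120 ± 6.47, Ldha at 74.3 ± 5.46, Hk1 at 56.5 ± 4.05, Pfkp at 18.8 ± 1.40 and Hk2 at 1.81 ± 0.210 FPKM. The order of the means was the same in TAF15 OE. There Aldoa (317 ± 19.0) and Aldoc (303 ± 28.0) overlapped, which they did not in Control, while Aldoc no longer overlapped Pkm (209 ± 1.82).

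**Figure D1:**
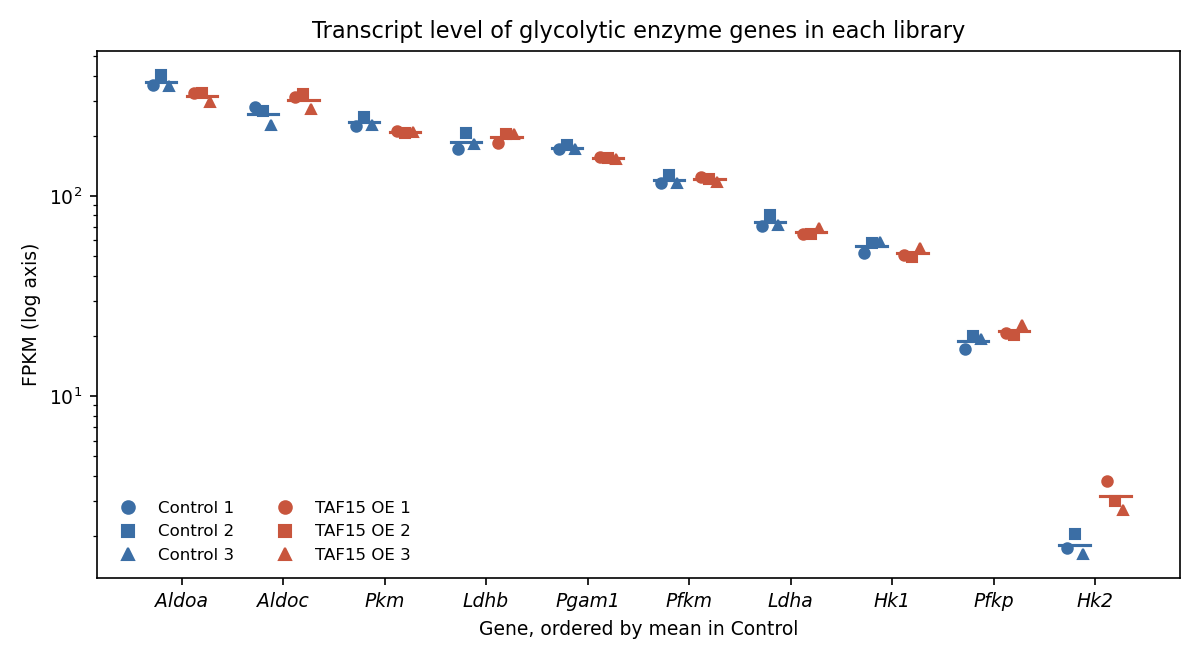
FPKM on a log axis for 10 glycolytic genes, ordered by their Control mean, with 1 point per library and a line at each group mean (n = 3 libraries per group). Aldoa and Aldoc draw level in TAF15 OE, and Hk2, the lowest gene, shows the widest gap between the groups.

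Of the 10 genes, 3 were called, against 15.3% of all tested genes: Hk2 rose and Aldoa and Pgam1 fell. The groups did not overlap in 6 of the 10, against 34.6% of all tested genes, and these were Hk2, Hk1, Aldoa, Pgam1, Pkm and Ldha. Their median log2 fold change was -0.10, with 6 values below 0 and 4 above. All 10 together held 0.508% to 0.560% of the counts in Control, against 0.493% to 0.513% in TAF15 OE. With the replicate number as a block, 1 gene was higher and 4 were lower, Pkm (adjusted p = 0.0373) and Ldha (adjusted p = 0.0358) being added. That setting called 3291 of all 16758 tested genes. The authors' deposited table gives an adjusted p below 0.05 for 6 of the genes, 1 higher (Hk2) and 5 lower (Hk1, Aldoa, Pgam1, Pkm and Ldha). The share over all genes of the authors' comparison was not computed.

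**Figure D2:**
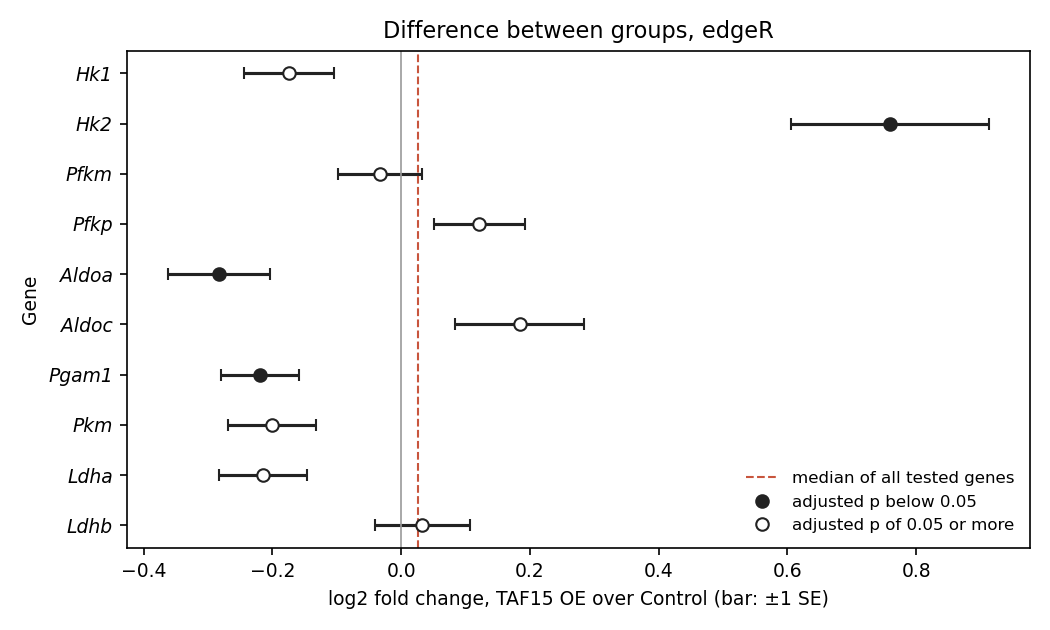
Log2 fold change of each gene, TAF15 OE over Control, with bars of 1 SE from edgeR, filled where adjusted p was below 0.05, and a dashed line at the median of all tested genes. Hk2 stands alone at 0.76, and Aldoa, Pgam1, Ldha, Pkm and Hk1 lie between -0.28 and -0.17.

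Hexokinase traps glucose in the cell as glucose 6-phosphate. Hk2 (ENSMUSG00000000628, chromosome 6, 82725025 to 82774454, minus strand, GRCm38) is the inducible form, known in brain chiefly from microglia. It stood at 10.8, 12.2 and 9.84 CPM in Control 1, 2 and 3, against 22.5, 17.5 and 15.6 in TAF15 OE 1, 2 and 3. Every TAF15 OE library lay above every Control library, with TAF15 OE 1 the highest. Hk2 rose (10.96 ± 1.17 against 18.6 ± 3.56 CPM, fold 1.69, log2 0.76 with SE 0.15, adjusted p = 0.00844). The call held with each library left out and with Control 1 and TAF15 OE 1 both left out (0.56, adjusted p = 0.0280). It was lost with limma-trend on log2(FPKM + 1) without a filter (0.56, adjusted p = 0.0934). Among the TAF15 OE libraries, TAF15 OE 1 was also highest in summed microglia markers, at 1748 CPM against 1124 and 1168 in TAF15 OE 2 and 3. The same held for astrocyte markers (9436 against 8809 and 8718 CPM), neuronal markers (11840 against 11010 and 10320) and endothelial markers. Oligodendrocyte markers were highest in TAF15 OE 2, and the part of any cell type in the rise of Hk2 was not tested.

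Hk1 (ENSMUSG00000037012, chromosome 10, 62268855 to 62379908, minus strand), the constitutive form, was at 459, 499 and 510 CPM in Control, against 431, 415 and 454 in TAF15 OE. The groups came close without overlapping, Control 1 lying nearest to TAF15 OE 3. Hk1 did not pass the test (489 ± 27.2 against 433 ± 19.5 CPM, log2 fold change -0.17, SE 0.070, adjusted p = 0.120). Per length Hk1 far outweighed Hk2 in every library. Hk2 made up 3.11% ± 0.371 of their summed FPKM in Control, against 5.78% ± 1.14 in TAF15 OE.

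Phosphofructokinase commits glucose to glycolysis, and its muscle-type gene Pfkm and platelet-type gene Pfkp are both expressed in brain. Pfkm (ENSMUSG00000033065, chromosome 15, 98092589 to 98132447, plus strand) was at 356, 377 and 349 CPM in Control, against 367, 352 and 338 in TAF15 OE, and the groups overlapped. Its log2 fold change was -0.033 (SE 0.065, adjusted p = 0.788), and its sign turned with total counts as the only scaling (0.013). Pfkp (ENSMUSG00000021196, chromosome 13, 6579768 to 6648777, minus strand) was at 240, 268 and 261 CPM in Control, against 275, 266 and 296 in TAF15 OE. The groups overlapped here as well, by Control 2 and TAF15 OE 2 (log2 fold change 0.12, SE 0.071, adjusted p = 0.288). Pfkp shares 748 exon bases with Pitrm1 on the opposite strand, and the sources used here do not say whether counting used strand.

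Aldolase splits fructose bisphosphate into triose phosphates. Aldoa (ENSMUSG00000030695, chromosome 7, 126795234 to 126808905, minus strand), the widely expressed form, found in neurons too, was at 1310, 1415 and 1260 CPM in Control, against 1148, 1122 and 1004 in TAF15 OE. All TAF15 OE libraries were below all Control libraries. Aldoa fell (1328 ± 79.2 against 1091 ± 76.5 CPM, log2 fold change -0.28, SE 0.079, adjusted p = 0.0333). Aldoc (ENSMUSG00000017390, chromosome 11, 78322968 to 78327781, plus strand), the form of astrocytes, went from 946, 870 and 752 CPM in Control to 1013, 1042 and 861 in TAF15 OE. The groups overlapped, TAF15 OE 3 lying below Control 1 and Control 2. Aldoc did not pass the test (856 ± 98.0 against 972 ± 97.0 CPM, log2 fold change 0.18, SE 0.099, adjusted p = 0.249). The value moved with the libraries used, to 0.096 without Control 3 and 0.12 without TAF15 OE 2.

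Lower in the pathway, Pgam1 (ENSMUSG00000011752, chromosome 19, 41911871 to 41918664, plus strand), the brain form of the mutase that moves the phosphate within phosphoglycerate, was at 326, 330 and 318 CPM in Control, against 285, 278 and 273 in TAF15 OE. A clear gap separated the groups, and replicates lay close together. Pgam1 fell (325 ± 5.92 against 279 ± 5.80 CPM, log2 fold change -0.22, SE 0.061, adjusted p = 0.0321). Pkm (ENSMUSG00000032294, chromosome 9, 59656368 to 59679375, plus strand), which makes pyruvate and ATP, was at 1165, 1244 and 1148 CPM in Control, against 1054, 1020 and 1019 in TAF15 OE. The groups did not overlap, but Pkm missed the threshold (1186 ± 50.8 against 1031 ± 19.6 CPM, log2 fold change -0.20, SE 0.068, adjusted p = 0.0706). Counts per gene do not part its splice forms, and 767 of its exon bases are shared with Gm49759 on the same strand (161 to 273 counts per library).

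The calls of Aldoa and Pgam1 depended on which libraries were used, while their direction did not. Both were lost without Control 1, Control 2, Control 3, TAF15 OE 2 or TAF15 OE 3, at adjusted p of 0.0577 to 0.119 for Aldoa and 0.0686 to 0.111 for Pgam1, and with total counts as the only scaling (adjusted p = 0.0547 and 0.0668). Both were kept without Control 1 and TAF15 OE 1 together (adjusted p = 0.0140 and 0.0405), where Pkm was called too (-0.26, adjusted p = 0.0445).

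Lactate dehydrogenase is a tetramer of the A and B subunits, of which A favours lactate formation and B its use. Ldha (ENSMUSG00000063229, chromosome 7, 46841475 to 46855627, plus strand) was at 244, 267 and 239 CPM in Control, against 212.2, 211.1 and 222.4 in TAF15 OE. All TAF15 OE libraries were the lower ones, and Ldha missed the threshold by little (250 ± 15.1 against 215 ± 6.23 CPM, log2 fold change -0.21, SE 0.068, adjusted p = 0.0548). Ldhb (ENSMUSG00000030246, chromosome 6, 142490249 to 142507957, minus strand) was at 280, 325 and 290 CPM in Control, against 289, 315 and 312 in TAF15 OE. The groups overlapped (log2 fold change 0.033, SE 0.074, adjusted p = 0.817), and the sign turned without Control 1 (-0.012) or TAF15 OE 2 (-0.0055).

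To set the forms against each other, the ratio of their FPKM was taken within each library, which needs no scaling between libraries. The 4 pairs of these genes and 3 pairs of related genes were compared by a two-sided exact permutation test. With 3 libraries against 3 its smallest p is 0.1, so no pair could pass 0.05, and each of the 7 pairs gave that exact p (0.1 also after adjustment over the 7). In each pair the groups did not overlap. The share of such ratios among other gene pairs was not computed, and the 34.6% given above is for single genes in CPM. In every pair but Pfkp and Pfkm, a gene already separated the groups when taken singly.

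The Aldoc to Aldoa ratio was 0.775, 0.660 and 0.640 in Control 1, 2 and 3, against 0.947, 0.997 and 0.920 in TAF15 OE 1, 2 and 3. Aldolase C transcript came close to aldolase A transcript in TAF15 OE, having been at 0.692 ± 0.0730 of it in Control (log2 difference 0.47, SE 0.092). Summed over both genes the aldolase level was 631 ± 44.2 FPKM in Control, against 619 ± 46.4 in TAF15 OE, with overlapping libraries. Aldoc supplied 40.8% ± 2.50 of that sum in Control, against 48.8% ± 1.01 in TAF15 OE.

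The Hk2 to Hk1 ratio was 0.0338, 0.0349 and 0.0276 in Control, against 0.0747, 0.0603 and 0.0492 in TAF15 OE, a log2 difference of 0.92 (SE 0.20). It was the largest of the 7 differences. For Pfkp to Pfkm the ratio was 0.149, 0.157 and 0.165 in Control, against 0.165, 0.167 and 0.193 in TAF15 OE (log2 difference 0.15, SE 0.084). Control 3 and TAF15 OE 1 nearly met there, the difference was 0.082 without TAF15 OE 3, and with a pseudocount of 1 the exact p was 0.2.

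For lactate dehydrogenase the difference had the opposite sign. The ratio of Ldha, the subunit held to be typical of astrocytes, to Ldhb, held to be typical of neurons, was 0.412, 0.390 and 0.390 in Control, against 0.348, 0.318 and 0.338 in TAF15 OE. The log2 difference was -0.25 (SE 0.047), so the A subunit transcript was lower relative to B in all 3 TAF15 OE libraries, while the astrocyte markers were higher in them. Their sum was 262 ± 23.0 FPKM in Control, against 264 ± 13.0 in TAF15 OE, and Ldha made up 28.4% ± 0.661 of it in Control, against 25.1% ± 0.876 in TAF15 OE.

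In the 3 pairs of related genes the ratio over the form linked to neurons was higher in TAF15 OE. Eno1, the widely expressed alpha enolase, was at 0.769 to 0.835 of Eno2 in Control, against 0.888 to 0.924 in TAF15 OE (log2 difference 0.16, SE 0.040). Taken singly, both had a log2 fold change below 0, Eno1 of -0.11 and Eno2 of -0.27. The ratio of Slc2a1, the glucose transporter of vessels and astrocytes, to Slc2a3, that of neurons, was 1.04 to 1.36 in Control, against 1.58 to 2.02 in TAF15 OE (0.56, SE 0.15, and 0.37 without Control 1 and TAF15 OE 1 together). For the monocarboxylate transporter Slc16a1 over the neuronal Slc16a7 the ratio was 3.00 to 3.97 in Control, against 4.25 to 5.35 in TAF15 OE (0.46, SE 0.16).

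**Figure D3:**
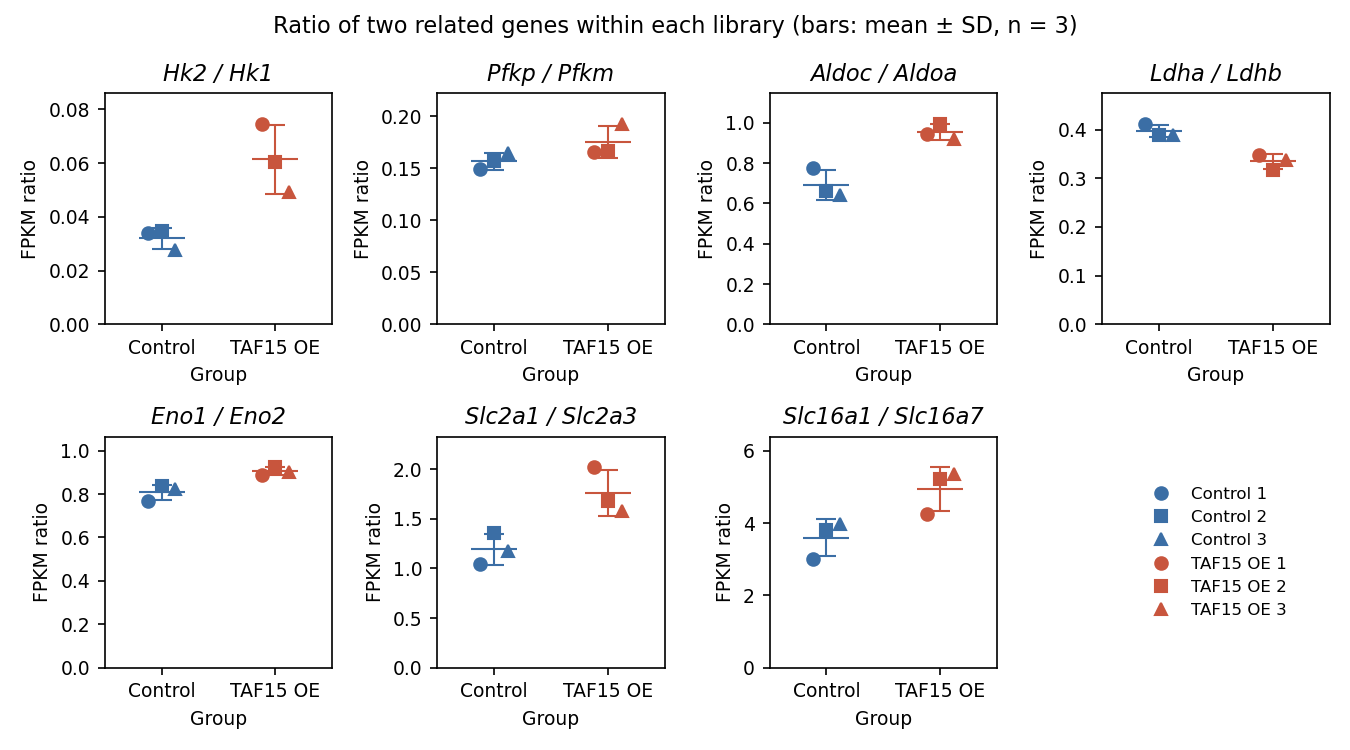
FPKM ratio of a gene to its relative within each library (y axes start at 0), with 1 point per library and the mean ± SD (n = 3) in Control and TAF15 OE. In 6 pairs the TAF15 OE points lie above the Control points, and for Ldha over Ldhb they lie below.

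Around these genes, 78 others of the pathway and its branches were looked up, and 72 were tested. Of these 6 were higher and 6 lower, 16.7% in all against 15.3% of all tested genes, with a median log2 fold change of 0.027. With the replicate number as a block, 7 were higher and 10 lower, beside 3291 calls among all 16758 tested genes.

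Among the 17 other glycolytic enzyme genes tested, 1 rose and 2 fell (median -0.18, 12 values below 0). Pfkl, the liver-type phosphofructokinase gene, was at 327.9, 311.5 and 301.5 CPM in Control, against 278, 227 and 228 in TAF15 OE and fell (log2 fold change -0.36, SE 0.086, adjusted p = 0.0174). Eno2, which also stands in the neuronal marker list, fell by 0.27 (SE 0.068, adjusted p = 0.0228), while Eno1 did not pass (-0.11, adjusted p = 0.347). Hk3, a hexokinase of myeloid cells, rose by 1.41 (SE 0.37, adjusted p = 0.0342), from 2.78, 3.44 and 2.46 CPM to 12.3, 4.46 and 6.36. TAF15 OE 1 was again the highest, and without it the log2 fold change of Hk3 was 0.88. Further enzymes of the core pathway did not pass the test but had no overlap between groups, namely Gpi1 (-0.17), Tpi1 (-0.19), Gapdh (-0.21) and Pgk1 (-0.18), at adjusted p of 0.0571 to 0.0980. They were chosen after their values were seen.

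Of the 10 regulators tested 1 rose and 1 fell. Hif1a rose (57.0 ± 1.29 against 70.2 ± 3.13 CPM, log2 fold change 0.30, SE 0.071, adjusted p = 0.0166). Tigar, a phosphatase that turns glucose towards the pentose phosphate pathway, fell by 0.35 (SE 0.10, adjusted p = 0.0411). Of 11 transporters and their partners, Slc16a1, which carries lactate and other monocarboxylates, rose from 50.8 ± 3.92 to 80.3 ± 10.1 CPM (0.66, SE 0.099, adjusted p = 0.00204). Slc2a3 fell by 0.26 (SE 0.071, adjusted p = 0.0309). Slc2a1 (0.30, adjusted p = 0.0587) and Slc16a7 (0.19, adjusted p = 0.286) did not pass, and Slc2a1 did with total counts (adjusted p = 0.0431), with no filter (0.0139) or without Control 2 (0.0318). Without Control 1 and TAF15 OE 1 together the log2 fold change of Slc2a1 was 0.12 (adjusted p = 0.413).

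Of 14 genes for the entry of pyruvate into mitochondria 1 fell, Dlat, the E2 core of pyruvate dehydrogenase (-0.25, SE 0.071, adjusted p = 0.0335). Of 8 pentose phosphate genes 1 rose, G6pdx, the first enzyme of that pathway (0.39, SE 0.092, adjusted p = 0.0177). Among 12 genes of glycogen and glycerol phosphate 2 rose and 1 fell. The brain glycogen phosphorylase gene Pygb rose from 286 ± 15.1 to 356 ± 28.6 CPM (0.32, SE 0.076, adjusted p = 0.0178), and Ugp2, which makes the sugar donor of glycogen synthesis, by 0.32 (SE 0.070, adjusted p = 0.0113). Gpd1, which links glycolysis to glycerol lipids, fell from 114 ± 13.8 to 79.5 ± 5.71 CPM (-0.52, SE 0.093, adjusted p = 0.00481).

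With libraries left out 1 at a time, Slc16a1 and Gpd1 kept their calls throughout. Ugp2 lost its call without TAF15 OE 2 (adjusted p = 0.0695). Hif1a lost it without Control 1, TAF15 OE 2 or TAF15 OE 3 (0.0554 to 0.0805), and G6pdx without Control 2, Control 3, TAF15 OE 1 or TAF15 OE 2 (0.0534 to 0.0699). Pygb lost it without Control 2, TAF15 OE 1 or TAF15 OE 2 (0.0570 to 0.110). Eno2 and Pfkl lost theirs without Control 1, Control 2, TAF15 OE 2 or TAF15 OE 3 (0.0554 to 0.0933), and Hk3 without Control 1, Control 2, Control 3 or TAF15 OE 3 (0.0593 to 0.133). Dlat and Tigar lost theirs without Control 1, Control 2, Control 3, TAF15 OE 2 or TAF15 OE 3 (0.0515 to 0.158), and Slc2a3 without any library but TAF15 OE 3 (0.0519 to 0.0975). Without Control 1 and TAF15 OE 1 together, Dlat, Slc2a3, Hk3 (0.85) and Pygb were not called (0.0522 to 0.0759).

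**Figure D4:**
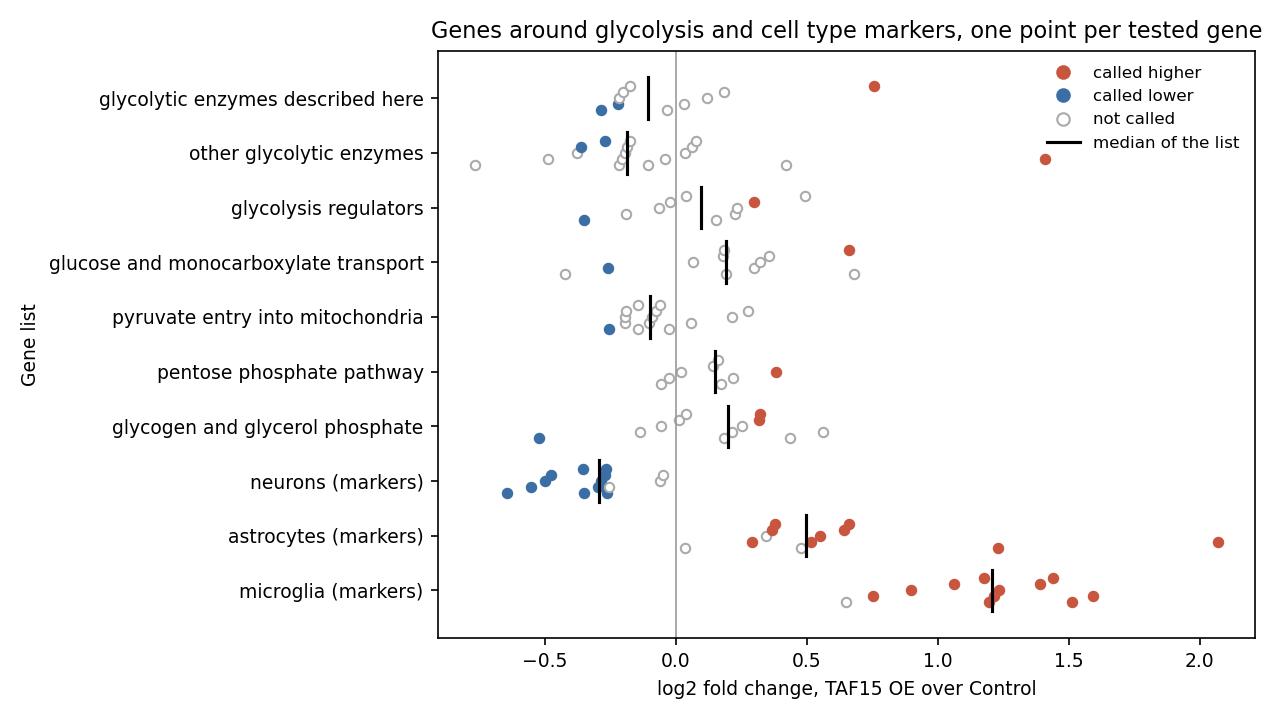
Log2 fold change, TAF15 OE over Control, with 1 point per tested gene in lists around glycolysis and in neuronal, astrocyte and microglia marker lists, coloured where called by edgeR, and a line at each list's median. The medians of the lists around glycolysis run from -0.18 (other glycolytic enzymes) to 0.20 (glycogen and glycerol phosphate), and those of the markers are -0.29 (neurons), 0.50 (astrocytes) and 1.21 (microglia).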

How the data were processed

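The members, gene lists and pairs were chosen with earlier results of these data known. The build GRCm38 and the tools HISAT2 2.1.0, TopHat2, Bowtie2 2.2.3 and CASAVA are named in the submitters' processing notes. What each did, which program counted and whether strand was used is not given in the sources used here. Counts per gene were deposited unscaled. The deposited FPKM values are the authors' own and use unscaled library totals. The authors' comparison table repeats the counts (100% of cells equal) and adds the authors' mean normalised signal, fold change as a ratio, log2 fold change and p-value with its adjusted value, from an unnamed test.

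Counts were fitted in R 4.3.3 with edgeR 4.0.16: filterByExpr (minimum count 10, minimum total 15), TMM scaling (factors 0.964 to 1.03) and a robust quasi-likelihood test with group as the only term, called at an adjusted p below 0.05. The biological coefficient of variation was 13.1%. CPM are counts over the TMM-scaled library total. SE come from the F statistic. The fits were tested on simulated counts. The text names all 10 members, Taf15, the genes of the pairs, and up to 4 called genes per direction of each pathway list. Cell type markers are given as lists. Alternatives were DESeq2 1.42.0 and its size factors, total counts, a filter at a mean of 1 CPM or none, limma-voom and limma-trend on log2 FPKM (limma 3.58.1, pseudocount 1 or 0.1, filter at a mean FPKM of 0.5 or none), the replicate block, each library left out, and Control 1 and TAF15 OE 1 left out together. Ratios were also computed on CPM and with a pseudocount of 1.

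Same-numbered libraries share a number in the titles only. Their deviations from the group means correlated at 0.16, 0.11 and 0.13 over genes for numbers 1, 2 and 3. Libraries of different number correlated at -0.14 to 0.066. The block was therefore run as an alternative. Its calls were followed gene by gene for 26 genes, and for the remaining pathway genes only its counts are given. No 2 libraries were duplicates (smallest chi-square per degree of freedom 5.15). Promoter windows are from RefSeq on GRCm38.p6 and matched all 10 symbols. Copies and overlapping genes were sought in GENCODE M21 with minimap2 2.31 (identity of at least 95% over at least 300 bases). Protein sequences were not used here. Figures were drawn with matplotlib 3.10.9.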

Additional observations from a re-analysis of the deposited data

How the results depend on the processing

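With 3 libraries per group, calls near the threshold moved with the settings while directions mostly held. Over all genes, 2559 of 16758 were called in the report, 2554 with total counts, 2775 with DESeq2 and 3291 with the replicate block. Without a filter 3576 of 30821 were called. With limma-trend on FPKM the calls were 1502 and 1537 of 16333 (pseudocount 1 and 0.1), and 601 of 30821 without a filter. With 1 library left out they ran from 1331 (without TAF15 OE 2) to 2501 (without TAF15 OE 1). The count of lower genes among the 10, 2 in the report, was 0 with total counts and with limma-trend on FPKM at a pseudocount of 1, at 0.1 and at 1 without a filter (at an unadjusted p below 0.05 there were 4 in each). It was 4 without a filter, with DESeq2 and with the replicate block, and 0 to 2 with each library left out (4 to 5 at an unadjusted p below 0.05). For these counts at an unadjusted p and those that follow, the share over all tested genes was not computed. The count of higher genes was 0 with limma-trend on FPKM without a filter (1 at an unadjusted p below 0.05, and 1 by DESeq2 and limma-voom). Among the other pathway genes, 6 of them higher in the report, 3 were higher with limma-trend on FPKM without a filter and 2 to 4 with each library left out. The lower ones, 6 in the report, were 3 with total counts, 11 with DESeq2, 10 with the replicate block, 2 with limma-trend on FPKM at either pseudocount, 0 without a filter there (9 at an unadjusted p below 0.05) and 1 to 6 with each library left out. The log2 fold change of Pfkm turned to 0.013 with total counts and in all 3 FPKM settings, and that of Ldhb to -0.012 without Control 1 and -0.0055 without TAF15 OE 2 (up to 0.096 without Control 2). Each of the 7 ratios kept its direction in its 10 alternatives, with Hk2 over Hk1 between 0.68 and 1.07, Pfkp over Pfkm between 0.082 and 0.19, Aldoc over Aldoa between 0.42 and 0.56, Ldha over Ldhb between -0.28 and -0.21, Eno1 over Eno2 between 0.13 and 0.19, Slc2a1 over Slc2a3 between 0.37 and 0.66 and Slc16a1 over Slc16a7 between 0.34 and 0.57 on the log2 scale. Ratios on CPM and with the replicate block could not change these differences. Library scaling cancels within a ratio, and the block leaves the difference of the group means as it is. The replicate block gave p = 0.25 by an exact sign-flip test for each ratio, the smallest it can give, and among the 26 genes followed it changed no call but those of Pkm and Ldha.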

Other observations

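Other forms of these enzymes, known chiefly from other tissues, were measured too. The liver pyruvate kinase gene Pklr had 0 to 4 counts per library and was not tested. The muscle enolase Eno3 was at 5.92 ± 0.732 CPM in Control against 7.93 ± 1.148 in TAF15 OE, and the muscle mutase Pgam2 at 7.39 ± 1.67 and 7.57 ± 1.20. Neither Eno3 nor Pgam2 passed edgeR's test (adjusted p = 0.141 and 0.934).

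Processed pseudogenes held few counts. Gm6560, 98.4% identical to Pkm over 1593 aligned bases, held 936 counts over the 6 libraries, 0.917% of the counts of Pkm. Pgam1-ps2, identical to Pgam1 over 765 bases, held 292. For Ldha the copies held 0.415% of its own counts and for Ldhb 0.115%. No copy of Hk1, Hk2, Pfkm, Pfkp or Aldoc was found at this identity. The sources used here do not say how reads matching a gene and its copy equally were counted. Reads dropped from both would not show in the counts of a copy. The levels of Pgam1, Pkm, Ldha and Ldhb are therefore uncertain by an amount that these counts do not bound. Copies of the other pathway genes, Gapdh among them, were not sought.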
